A study of Rattus norvegicus with 2 samples.

Results

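Transcript levels of 7 transcription factors of the oligodendrocyte lineage were compared between 2 cultures of oligodendrocyte precursor cells (OPCs) from rat, cycling glia that mature into myelin-forming oligodendrocytes. The factors were Olig1, Olig2, Nkx2-2, Nkx6-2, Myrf, Zfp488 and Prox1, chosen as a named set, and all 7 were found by symbol among the 17202 genes of the expression table. One culture of primary wild-type rat OPCs had received amyloid-beta (Aβ), the peptide of Alzheimer's disease plaques, at 1 µM for 2 days. The other, of the same genotype and likewise from brain, had received the solvent DMSO, and the labels give its time only through protocol text shared by both samples. Both were grown in a medium called OGM, and both titles carry the code P1, which the labels do not explain. The labels speak of adult OPCs in one place and of developing rats in another, so the age of the donors is not known here. Each culture gave 1 library of bulk RNA sequencing, and the depth was 15117102 estimated counts with Aβ and 15019416 with DMSO. With 1 library per condition there was no replicate, no test was run, and no difference below has a replicate check.

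Oligodendrocyte identity is built up by transcription factors in sequence. Olig2, a basic helix-loop-helix protein, specifies the lineage in response to Sonic hedgehog in the ventral neural tube, and Olig1 is its close relative. The homeodomain protein Nkx2-2 also acts in the lineage. Sox10 acts with them, and Myrf, a membrane-anchored factor that cuts itself free to enter the nucleus, is switched on later and drives the myelin genes. From work in mice, Zfp488 is a zinc finger partner of Olig2 that favours differentiation, Nkx6-2 is a homeodomain protein of maturing oligodendrocytes, and Prox1 is a homeodomain protein best known from neurons and lymphatic endothelium that also acts in the oligodendrocyte lineage.

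Promoter sequences from RefSeq (build GRCr8, 250 bases before to 50 after the start of the gene) matched 4 of the 7 factors, Olig2, Nkx2-2, Nkx6-2 and Zfp488. The 3 shown belong to genes at a high, an intermediate and a very low level in these cultures. They are Olig2 (chr11:43961335-43961634, plus strand), Nkx2-2 (chr3:155075573-155075872, minus strand) and Nkx6-2 (chr1:203813073-203813372, minus strand). Capitals mark matches on either strand to the CCAAT box, to the GC box GGGCGG, to the TATA box TATAAA and to the E-box CANNTG, the kind of site that basic helix-loop-helix proteins bind.
Olig2: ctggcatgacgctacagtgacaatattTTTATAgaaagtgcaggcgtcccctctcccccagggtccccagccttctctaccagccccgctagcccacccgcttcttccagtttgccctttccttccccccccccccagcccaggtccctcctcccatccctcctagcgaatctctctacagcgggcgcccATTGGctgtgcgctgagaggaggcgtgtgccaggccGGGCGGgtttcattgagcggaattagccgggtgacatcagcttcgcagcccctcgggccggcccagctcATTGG
Nkx2-2: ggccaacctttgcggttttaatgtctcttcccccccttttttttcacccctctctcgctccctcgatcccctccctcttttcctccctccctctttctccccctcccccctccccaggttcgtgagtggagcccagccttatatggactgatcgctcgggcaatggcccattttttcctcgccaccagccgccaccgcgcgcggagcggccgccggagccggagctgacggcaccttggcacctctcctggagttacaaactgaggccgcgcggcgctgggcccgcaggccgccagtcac
Nkx6-2: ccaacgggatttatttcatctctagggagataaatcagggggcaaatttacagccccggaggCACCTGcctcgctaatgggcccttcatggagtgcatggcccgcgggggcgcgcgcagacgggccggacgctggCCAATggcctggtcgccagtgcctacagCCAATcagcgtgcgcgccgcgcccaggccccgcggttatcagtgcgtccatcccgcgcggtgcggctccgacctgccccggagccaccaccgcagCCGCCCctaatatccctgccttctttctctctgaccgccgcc

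The Olig2 window held 2 CCAAT boxes, 1 GC box and 1 match to the TATA box, the last at base -223 from the start. In the Nkx6-2 window there were 2 CCAAT boxes, 1 GC box and 1 E-box, and in the Nkx2-2 window none to any of the 4 motifs. Zfp488, not printed, had 1 GC box. Of 33469 rat promoters of this length, 37.5% held a CCAAT box, 33.1% a GC box, 14.2% a TATA box and 72.1% an E-box by the same letters. The dinucleotide CG, which is common in promoters of developmental genes, occurred 16 times in the Olig2 window, 23 times in that of Nkx2-2 and 30 times in that of Nkx6-2, against a median of 7 over all promoters. Nkx6-2, the lowest of the 3 in level, had the most CG, which describes letters and not the binding of any factor.

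All 7 factors were detected in both libraries, and their levels spanned 3 orders of magnitude. Counting intervals of the Aβ and DMSO levels overlapped for each of them. Olig1 and Olig2 dominated, the lineage regulators Nkx2-2 and Myrf were intermediate to low, and Nkx6-2 was close to the limit of detection. Levels are given first in TPM, transcript abundance, a scale per length on which genes can be compared. Their sum over the 7 factors was 1136 TPM with Aβ and 1122 TPM with DMSO. Olig1 alone made up 74.8% of that sum with Aβ and 74.97% with DMSO, and Olig2 made up 19.0% with Aβ and 18.6% with DMSO.

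**Figure D1:**
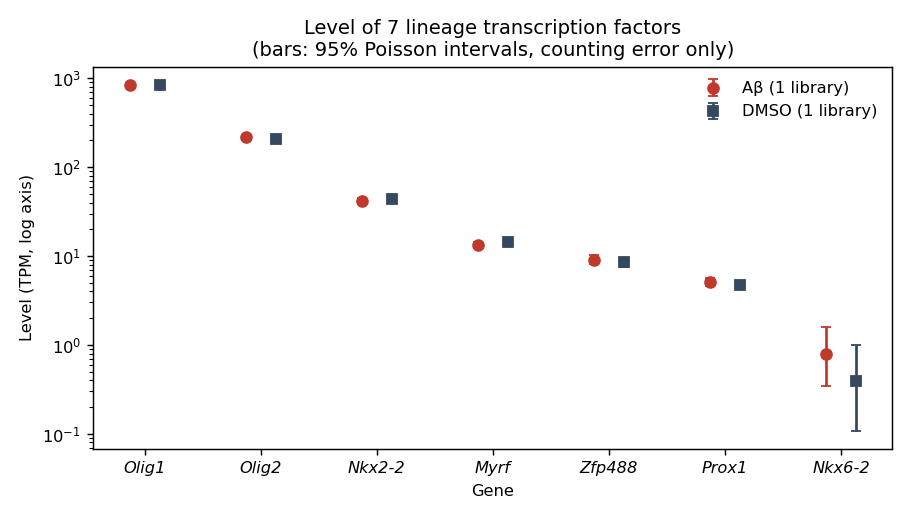
Level of each factor in TPM on a log axis, with Aβ as circles on the left of each pair and DMSO as squares on the right. Bars are 95% Poisson intervals of the counts and cover counting error only; the order from Olig1 to Nkx6-2 is the same in both libraries.

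Olig1 had 850.3 TPM with Aβ (95% Poisson interval 837 to 863, counting error only) and 841 TPM with DMSO (828 to 854). These levels placed it at rank 167 with Aβ and rank 170 with DMSO among all 17202 genes. Olig2 followed with 216 TPM with Aβ (210.0 to 222) and 209 TPM with DMSO (203 to 214), at rank 672 with Aβ and rank 694 with DMSO. Both basic helix-loop-helix genes were thus among the abundant transcripts of the culture.

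The homeodomain factor Nkx2-2 had 41.5 TPM with Aβ (38.5 to 44.7) and 44.1 TPM with DMSO (41.0 to 47.4). For Myrf, the activator of myelin genes, the levels were 13.5 TPM with Aβ (12.5 to 14.5) and 14.3 TPM with DMSO (13.3 to 15.4). Zfp488 stood at 9.13 TPM with Aβ (8.15 to 10.2) and 8.53 TPM with DMSO (7.58 to 9.56). The pair of intervals overlapped for every one of these genes, and the same held for Olig1 and Olig2. Prox1 had 5.08 TPM with Aβ (4.59 to 5.61) and 4.76 TPM with DMSO (4.29 to 5.26). Nkx6-2 had only 0.80 TPM with Aβ (0.345 to 1.58) and 0.39 TPM with DMSO (0.106 to 0.999), from 8 counts with Aβ and 4 with DMSO. This gene was the sole member that missed the level of measurement used here, 1 CPM (counts scaled to library size) in at least 1 library, so 6 of the 7 passed that filter.

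The order by TPM was Olig1, Olig2, Nkx2-2, Myrf, Zfp488, Prox1 and Nkx6-2 in each library, and every step between neighbours exceeded counting error. Olig1 exceeded Olig2 by 3.94-fold with Aβ (exact 95% counting interval 3.82 to 4.06) and by 4.03-fold with DMSO (3.91 to 4.16). The next step, from Olig2 to Nkx2-2, was 5.20-fold with Aβ (4.81 to 5.63) and 4.73-fold with DMSO (4.38 to 5.12). Myrf lay below Nkx2-2 by 3.08-fold in both libraries (2.78 to 3.42 with Aβ and 2.78 to 3.41 with DMSO). The narrowest step separated Myrf from Zfp488, at 1.48-fold with Aβ (1.29 to 1.69) and 1.68-fold with DMSO (1.47 to 1.93). Without a second library per condition, whether any of these steps exceeds the spread between cultures cannot be said.

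Length decides part of that order. In CPM, a scale that is not per length and serves only to compare a gene with itself, Myrf had 48.4 CPM with Aβ and 51.9 CPM with DMSO, above Nkx2-2 with 47.3 CPM with Aβ and 49.4 CPM with DMSO. Prox1 at 25.5 CPM in each library likewise passed Zfp488, which had 20.7 CPM with Aβ and 19.6 CPM with DMSO. Per length, both of these pairs stood the other way round.

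Set among 36 other transcription and chromatin factors of the lineage, Olig1 ranked first of 43 by TPM in both libraries and Olig2 came in at rank 3. Sox2, a factor of neural progenitors, stood between them with 226 TPM with Aβ and 211 TPM with DMSO, and was the factor nearest to Olig2 in level (distance 0.066 in log2 TPM over the 2 libraries). It was also the nearest to Olig1, at a distance of 2.77, so no factor of the list came close to Olig1. Sox10, the partner of Olig2 and Nkx2-2 in the lineage, had 117 TPM with Aβ and 115 TPM with DMSO. Nkx2-2 was nearest to Myt1, a zinc finger factor of OPCs, which had 40.3 TPM with Aβ and 38.1 TPM with DMSO (distance 0.21). Myrf was nearest to Sox5 (12.5 TPM with Aβ, 11.2 TPM with DMSO), a factor that holds back terminal differentiation in mice. The nearest factors to the remaining members were Hes1 for Zfp488, Klf9 for Prox1 and St18 for Nkx6-2, at distances of 0.58, 0.19 and 1.09.

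The comparison asks whether exposure to Aβ, which the series title links to suppressed differentiation, altered the transcripts of the factors that direct it. The 6 measured factors lay within 7% of the DMSO level, with 3 above and 3 below, and none had a counting interval that left out equality. With TPM, a scale that moves the median log2 ratio of all measured genes to 0.037, Olig1 changes side, with 4 above and 2 below. Myrf was the furthest below and Zfp488 the furthest above. Ratios are CPM with Aβ over CPM with DMSO, with exact 95% Clopper-Pearson intervals that cover counting error only. Fewer cells of a type and less RNA per cell cannot be told apart in bulk RNA.

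Olig1 had 16456 counts with Aβ against 16574 with DMSO. Scaled to library size these were 1088 CPM with Aβ and 1104 CPM with DMSO. Its ratio was 0.985 (0.964 to 1.01), 0.983 with the deposited FPKM and 1.01 with the deposited TPM. On the TPM scale the median log2 ratio of all measured genes was 0.037 in place of -0.00078. Olig2 had 5337 counts with Aβ against 5259 with DMSO, for a ratio of 1.01 (0.969 to 1.05). These genes, next to each other on rat chromosome 11 in GRCr8 and known as a pair in the lineage, had a combined ratio of 0.990 (0.972 to 1.01). The intervals of both lay within 1.2-fold, so a difference of that size would have exceeded counting error in either gene.

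Nkx2-2 had 715 counts with Aβ against 742 with DMSO, for a ratio of 0.956 (0.861 to 1.06). Myrf had 732 counts with Aβ against 779 with DMSO, and its ratio of 0.932 (0.841 to 1.03) was the lowest of the 7. For Zfp488 there were 313 counts with Aβ against 294 with DMSO, for a ratio of 1.06 (0.898 to 1.24). The Olig2 partner thus lay slightly above the DMSO library and the myelin activator slightly below it, both within counting error. Prox1 had 386 counts with Aβ against 382 with DMSO, which gave a ratio of 1.00 (0.868 to 1.16). With 8 counts with Aβ against 4 with DMSO, Nkx6-2 had a ratio of 1.98 (0.531 to 9.002). That interval includes both a 1.5-fold decrease and a 4-fold increase, so these counts fix neither direction nor size. Interval limits lay within 1.2-fold for 5 of the 7 factors and within 1.5-fold for 6.

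**Figure D2:**
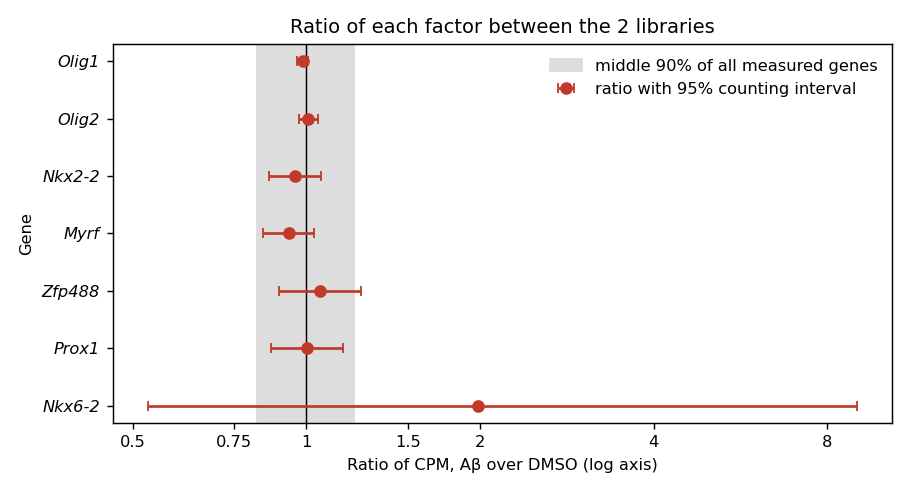
Ratio of CPM with Aβ over CPM with DMSO for each factor on a log axis, with exact 95% counting intervals as bars and the middle 90% of all measured genes (0.822 to 1.21) as a grey band. All 7 intervals include 1, the 6 measured factors lie inside the band, and Nkx6-2, from 8 counts with Aβ and 4 with DMSO, has an interval reaching 9.002.

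Against the whole table these differences were ordinary. A rule of size, a log2 ratio of at least 1 in size together with a counting interval that leaves out 1, called 91 of 13505 measured genes (0.674%), of which 0.267% were higher and 0.407% lower with Aβ, and it called 0 of the 6 measured factors. Counting intervals left out 1 for 13.4% of measured genes, 6.49% above and 6.88% below, and for 0 of the 6 factors. Such intervals narrow as counts grow, so this share depends on level, and no list below was matched to all genes in level. A count of 0 among 6 genes does not set them apart from either share. All 6 have whole counts. Of the 11726 measured genes with whole counts, the rule called 12, and intervals left out 1 for 1378. Genes with fractional counts thus made up most of the 91 calls. The median log2 ratio of the 6 factors was -0.0094, with a range of -0.10 for Myrf to 0.077 for Zfp488, while the median over all measured genes was -0.00078. With TPM the median of the 6 was 0.032 and that of all measured genes 0.037. Of all measured genes, 39.3% had a log2 ratio further from 0 than that of Myrf, 49.8% than that of Zfp488 and 97.7% than that of Prox1. These shares take in genes of low level, whose ratios spread more widely, and were not matched for level.

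**Figure D3:**
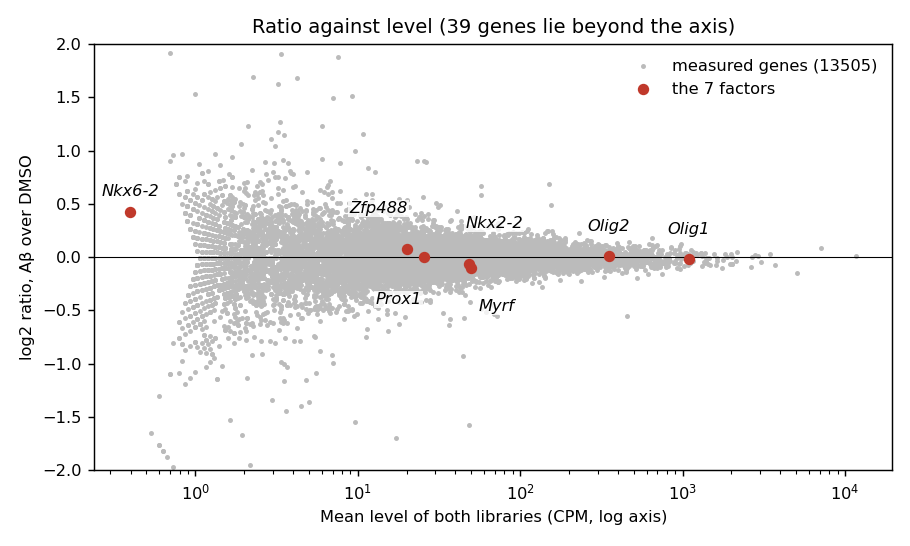
log2 ratio of Aβ over DMSO against the mean level of both libraries in CPM (log axis), with the measured genes as grey points (39 of 13505 lie beyond the axis limit of 2 in size and are not shown) and the 7 factors as labelled red points. The spread of all genes narrows as the level grows, and the 6 measured factors, from 20.7 CPM with Aβ for Zfp488 to 1088 CPM with Aβ for Olig1, lie near the middle line.

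Ratios between members do not depend on how the libraries are scaled. Over all 21 pairs of factors, 0 had a counting interval for the change of their ratio that left out 1. Olig1 over Olig2 was multiplied by 0.978 with Aβ (exact conditional interval 0.936 to 1.02). The balance of Olig2 to Myrf, an early against a late factor, was 16.02 with Aβ and 14.6 with DMSO in TPM, and by counts it was multiplied by 1.08 (0.968 to 1.205). Myrf over Zfp488 gave the value furthest from 1 among the 15 pairs without Nkx6-2, at 0.883 (0.728 to 1.07).

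All 7 factors had whole estimated counts in both libraries, while 11.9% of all genes had fractional ones. No gene of the RefSeq table (GRCr8) overlapped any of the 7, which matters because the use of strand in counting is not known. Of 14 listed paralogues, 9 were found in the table, and 3 of those were measured. Bhlhe22, a helix-loop-helix relative of the Olig genes, had 24.6 TPM with Aβ and 25.9 TPM with DMSO (ratio 0.923, 0.834 to 1.02). Prdm8, which shares zinc fingers with Zfp488, had 5.61 TPM with Aβ and 5.43 TPM with DMSO, and Nkx2-1, a homeodomain gene of the ventral forebrain, 1.00 TPM with Aβ and 1.26 TPM with DMSO. Nkx6-1, the closest relative of Nkx6-2, had 1 count with Aβ and 2 with DMSO, and Myrfl had 2 in each. The median log2 ratio of the 3 measured paralogues was -0.11, with 1 above 0 and 2 below.

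Transcripts of 8 proteins that act on these factors were also compared, with 3 of 8 above 0, 5 below and a median log2 ratio of -0.0090, which was 0.037 with TPM. Fbxw7, a ubiquitin ligase subunit that marks Myrf for breakdown, had 361 counts with Aβ against 440 with DMSO, for a ratio of 0.814 (0.706 to 0.937). Tmem98, a membrane protein that binds Myrf and restrains its self-cleavage, had 637 counts with Aβ against 557 with DMSO, for a ratio of 1.13 (1.01 to 1.27). These were the 2 members of the list whose intervals left out 1, or 25% of the list beside 13.4% of all measured genes, and neither was past the rule of size. The Groucho corepressors Tle4 and Tle1, which work with Nkx2-2, stood at 0.937 (0.874 to 1.00) and 0.938 (0.849 to 1.04).

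Among the 36 other lineage factors, 35 were measured, with 20 above 0 and 15 below, and their median log2 ratio was 0.033. Intervals lay wholly above 1 for 5 and below 1 for 3, or 22.9% of the list beside 13.4% of all measured genes, and 0 were past the rule of size. Furthest from 0 was Hes1, a Notch effector, at a log2 ratio of -0.27 (ratio without pseudocount 0.823, 0.642 to 1.05), followed by St18 at -0.24 (0.819, 0.519 to 1.29) from 38 counts with Aβ and 46 with DMSO. Nfib, a nuclear factor I protein of gliogenesis, stood at 1.18 (1.11 to 1.26) and Tcf4, a helix-loop-helix dimer partner of Olig proteins, at 1.17 (1.07 to 1.29). Sox10 was at 0.995 (0.946 to 1.05).

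**Figure D4:**
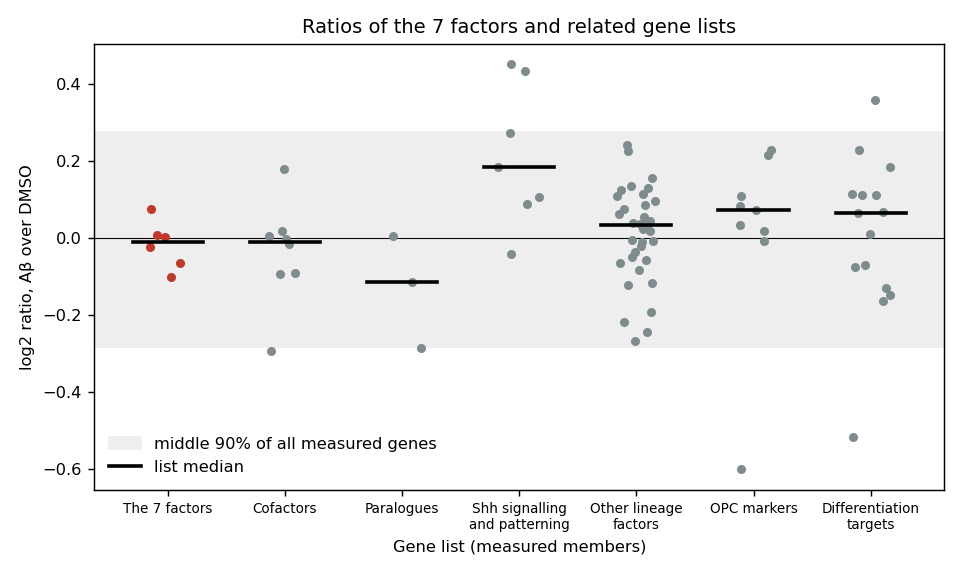
log2 ratio of Aβ over DMSO for the measured genes of each list (points), with the list median as a black bar and the middle 90% of all measured genes as a grey band. The 6 measured factors on the left lie between -0.10 and 0.077, a narrower range than in the lists of other lineage factors (-0.27 to 0.24) and differentiation targets (-0.52 to 0.36), which hold more genes and, in part, lower counts.

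Genes that these factors switch on during differentiation were mixed. Of 20 listed targets, 19 were in the table and 15 measured, 9 above 0 and 6 below, and their median log2 ratio was 0.066. None of the 15 was past the rule of size. Mbp, a major protein of compact myelin and a target of Myrf, had 20.9 TPM with Aβ and 23.6 TPM with DMSO (ratio 0.901, 0.780 to 1.04). Gpr17, a receptor of committed precursors, had 84.0 TPM with Aβ and 73.0 TPM with DMSO (1.17, 1.10 to 1.25). Aspa, an enzyme of mature oligodendrocytes, stood at 0.661 (0.432 to 1.00) from 40 counts with Aβ and 60 with DMSO, Mag at 1.36 (0.806 to 2.32) from 37 with Aβ and 27 with DMSO, and Mog at 1.14 (0.989 to 1.31). Intervals lay wholly above 1 for 4 of the 15 targets and below 1 for 0, or 26.7% in all beside 13.4% of all measured genes.

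The labelled cell type was checked against its markers. Of 10 listed OPC markers, 9 were found and all 9 were measured, with a summed level of 1399.6 TPM with Aβ and 1320.3 TPM with DMSO, 7 above 0 and 2 below, and their median log2 ratio was 0.073. Pdgfra, the receptor for the OPC mitogen, had 228 TPM with Aβ and 206 TPM with DMSO (ratio 1.08, 1.05 to 1.10), and its counts are fractional. Intervals lay wholly above 1 for 4 of the 9 OPC markers and below 1 for 1, or 55.6% in all beside 13.4% of all measured genes, and 0 were past the rule of size. The 2 shares are not matched for level. Ptprz1, with 42843 counts with Aβ and 41923 with DMSO, is among the 4 at a ratio of only 1.01. Cspg4, the NG2 proteoglycan, had 14.4 TPM with Aβ and 13.2 TPM with DMSO. Matn4, with 40 counts with Aβ and 64 with DMSO (0.620, 0.407 to 0.935), and Cacng4, at 1.16 (1.01 to 1.34), were, with Gpr17 and Pdgfra, the markers furthest from 0. Astrocyte markers were abundant as well, and their summed level was higher than that of the OPC markers in both libraries. The lists hold different genes, so these sums do not rank the cell types. Olig1 and Olig2, on neither list, together had 1066 TPM with Aβ and 1050 TPM with DMSO. All 8 astrocyte markers were measured, with a summed level of 2231 TPM with Aβ and 2117.5 TPM with DMSO. Their median log2 ratio was 0.029, and Gfap, the astrocyte filament, had 839 TPM with Aβ and 793 TPM with DMSO. Intervals lay wholly above 1 for 3 of the 8 and below 1 for 1, beside the same 13.4%. Furthest among them were Aldh1l1 at 0.883 (0.809 to 0.963), S100b at 1.06 (1.01 to 1.10) and Aldoc at 1.03 (0.996 to 1.07). The part of such cells in the levels of the 7 factors was not tested.

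Other marker lists had lower sums than the OPC and astrocyte lists. Summed levels were 111.0 TPM with Aβ and 109 TPM with DMSO for 8 neuronal markers. For 8 markers of mature oligodendrocytes they were 70.9 TPM with Aβ and 70.8 TPM with DMSO. These 8 are also on the list of differentiation targets, whose 19 genes summed to 1223 TPM with Aβ and 1150 TPM with DMSO. For 5 Schwann cell markers the sums were 20.9 TPM with Aβ and 27.0 TPM with DMSO, and for 8 microglial markers 11.3 TPM with Aβ and 12.8 TPM with DMSO. For 5 of 7 listed markers of endothelium and pericytes they were 2.09 TPM with Aβ and 2.83 TPM with DMSO. The endothelial markers Cldn5 and Cdh5 were not found. These lists bear on Prox1, which is known from neurons and lymphatic endothelium. Flt4 and Lyve1, of lymphatic endothelium, had 0 and 2 counts with Aβ and 1 and 5 counts with DMSO. The 8 neuronal markers had 4 log2 ratios above 0 and 4 below, with a median of 0.0087, from -0.34 for Slc17a7 to 0.29 for Neurod1, and 0 intervals left out 1. The share of such cells in the Prox1 level was not tested. Flt4 and Rgs5 were the markers at 0 counts in a library, both with Aβ.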

How the data were processed

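RNA was measured by bulk sequencing of mRNA libraries made with a BGI kit, per the labels' protocols. Alignment was with Bowtie2 and the genome was Rnor_6.0, per the submitters' processing notes. Which quantifier, annotation and strand setting served was not given in the sources used here. Per the file headers, the authors deposited estimated counts (expected counts), TPM (per length, scaled to 1 total) and FPKM (per length and library size). A further deposited signal column, named a normalized read count, was not used.

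Estimated counts, fractional for 11.9% of genes in each library, were rounded to whole numbers. Library sizes for CPM were adjusted by TMM (edgeR 4.0.16, R 4.3.3), and DESeq2 1.42.0 gave alternative size factors. A gene counted as measured where either library reached 1 CPM. log2 ratios added 0.5 CPM, which understates differences of low genes, and ratios used none. For ratios and the rule of size, a gene at 0 in 1 library and above 3 counts in the other was given a floor of 3; at 3 counts or fewer it has no ratio. List medians use no floor. Poisson, Clopper-Pearson and conditional odds ratio intervals (scipy 1.17.1) are at 95% and cover counting error only. The calculation was tested on simulated data. Motifs were searched as letters on both strands.

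The 7 factors and the gene lists were chosen with earlier results of these data known. Named genes are the 7 factors, up to 4 members of each list furthest from 0, the lineage factor nearest to each member in TPM, and Sox10, Pdgfra, Cspg4 and Mbp; paralogues and cell type markers are named for their level. Alternatives were other library factors, filters and pseudocounts, and TPM or FPKM in place of counts. Protein sequences were not used here.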

Additional observations from a re-analysis of the deposited data

How the results depend on the processing

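Of 97 alternative values, 91 stayed within counting error, within 1.5 times a count, or within a sign-test interval of a list median. For short lists, the 6 measured factors included, that interval is the full range of the list, which a median can hardly leave. The ratio of Olig1 moved to 1.01 with the deposited TPM, from 0.985 with counts; that of Prox1 lay between 1.00 and 1.07, that of Myrf between 0.915 and 0.940, that of Nkx2-2 between 0.916 and 0.960, that of Olig2 between 1.01 and 1.03, and that of Zfp488 between 1.04 and 1.07. Nkx6-2 ranged from 1.05 with a pseudocount of 5 CPM to 2.05 with TPM. The rule of size called 91 genes, but 24 with a filter of 10 CPM and 24 with a pseudocount of 5 CPM. Among the 11726 measured genes with whole counts it called 12. The median log2 ratio of other lineage factors was 0.077 with TPM, a scale that moves the median of all measured genes to 0.037, and that of the 6 measured factors was 0.032 with TPM and 0.0032 with Nkx6-2 included. Ordering by CPM in place of TPM put 4 members at another rank, and FPKM put 0. FPKM is proportional to TPM within a library, so its order could not differ. That 0 is among the 91 values that stayed. No paired analysis was possible because each condition has 1 library. For the same reason no library could be left out, and Nkx6-2 is limited by its 8 counts with Aβ and 4 with DMSO.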

Other observations

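Genes of Sonic hedgehog signalling and ventral patterning had log2 ratios mostly above 0 where measured, and were split once unmeasured genes were included. The pathway induces Olig2 and Nkx2-2 in the embryo. Of 12 listed genes, 11 were in the table and 7 measured, 6 above 0 and 1 below, and their median log2 ratio was 0.19 beside -0.00078 for all measured genes. Over all measured genes 49.7% lay above 0. Intervals lay wholly above 1 for 2 of the 7 and below 1 for 0, beside 6.49% and 6.88% of all measured genes. With no filter on level the median over the 11 was 0.088, with 6 above 0 and 5 below. The list mixes an antagonist of the pathway with its other parts and with patterning factors, so its median gives no direction of hedgehog activity. Ptch1, the hedgehog receptor and itself a target of the pathway, had 713 counts with Aβ against 522 with DMSO, for a ratio of 1.35 (1.21 to 1.52), and was not past the rule of size. Hhip, a secreted hedgehog antagonist and target, had 40 counts with Aβ against 27 with DMSO (1.47, 0.880 to 2.49), and the transcription factors Gli2 and Gli3 stood at 1.22 (1.00 to 1.47) and 1.14 (0.934 to 1.40). Gli1, the usual readout of active hedgehog signalling, went the other way with 2 counts with Aβ against 10 with DMSO (0.198, 0.0211 to 0.931) and was below the level of measurement. Shh, the ligand, had 0 counts with Aβ against 1 with DMSO. Pax6, a patterning factor that is antagonistic to Nkx2-2 in the neural tube, had 29.5 TPM with Aβ and 29.8 TPM with DMSO. Gli1, Shh and Pax6 were named after their values were seen.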
